A study of Mus musculus with 6 samples.

Results

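Transcripts of 8 enzymes of sugar phosphate metabolism were measured in the ileum of mice with and without forced HIF-1α in the gut epithelium. The genes are Hk1, Hk2, Gpi1, Pfkl, Pfkp, Pfkfb3, Pgm2 and Pgd, chosen by name as 8 of the 923 genes in the deposited table. Ileum RNA came from 3 Hif1α LSL/LSL;VilERcre mice, called overexpression here, and 3 Hif1α LSL/LSL littermates, called flox. All 6 mice were on a C57BL/6 background and carried the conditional Hif1α allele, and all received tamoxifen. The overexpression mice also carried a Cre that the villin promoter restricts to the intestinal epithelium and that tamoxifen switches on, whereas the RNA was of the whole ileum. In the sample labels each group has 2 males and 1 female, the female being replicate 3, although the paper's text calls these mice male. The methods give an age, matched between groups, for males at the start of a high-fructose diet, but which age and diet the mice behind these libraries had is not named.

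Depth, as implied by the deposited FPKM, was 18918341 to 24905343 fragments per library. Each gene in the table had an unadjusted p under 0.05 in the authors' own test of the same groups. The members had thus already passed a filter on the contrast described here, and fold changes of genes chosen in that way lean high. The edgeR test also took its estimates of spread from these listed genes only, so its p-values may lean low. Mouse Hif1a was counted at 741, 1063 and 1185 normalized counts in flox 1 to 3 and at 535, 728 and 741 in overexpression 1 to 3 (log2 fold change −0.58, SE 0.20, edgeR adjusted p = 1). It was therefore not higher in the libraries labelled overexpression. The conditional allele is an inserted, stabilised HIF1A copy, and whether its reads fell to the mouse gene is not stated, so Hif1a counts do not check the labels. Some known HIF-1 targets in the table were higher in these libraries, among them the lactate exporter Slc16a3 (log2 3.75, edgeR adjusted p = 8.06e-05) and the mitophagy receptor Bnip3 (log2 2.67, edgeR adjusted p = 0.000176), both named after their values were seen. Of 52 marker genes of cell types that an ileum sample may hold, 4 were in the table. Fabp6 of ileal enterocytes (log2 0.41) and Lgr5 of crypt stem cells (log2 −0.41) did not pass, each at an edgeR adjusted p = 1. Acta1, the actin of skeletal muscle, passed, with 189, 137 and 281 normalized counts in flox and 950, 587 and 675 in overexpression (log2 1.87, SE 0.28, edgeR adjusted p = 0.0438). The other 3 skeletal muscle markers of the list were not in the table. In bulk RNA, a change in the number of cells of a type and a change in RNA per cell cannot be told apart, and the part of these markers in the results was not tested.

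Glucose that enters a cell is phosphorylated by hexokinase to glucose-6-phosphate, which holds it inside the cell. Glucose-6-phosphate then has several fates. Phosphoglucose isomerase turns it into fructose-6-phosphate, phosphofructokinase commits that to glycolysis, phosphoglucomutase exchanges it with glucose-1-phosphate for glycogen and nucleotide sugars, and the oxidative pentose phosphate pathway draws it off to make NADPH and ribose. Phosphofructokinase is a tetramer of liver, muscle or platelet type subunits, and it is activated by fructose-2,6-bisphosphate, which the bifunctional PFKFB enzymes make and break. HIF-1 is the transcription factor of the response to low oxygen. It binds short hypoxia response elements whose core reads ACGTG or GCGTG, and many genes of glycolysis are known targets.

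Because the promoters of glycolytic genes are where such elements have been described, the stretches in front of the start sites of the members were searched for both cores on both strands. RefSeq's promoter table for GRCm38.p6, the build of the deposited files, held all 8 members with 11 promoters of 300 bases, from 250 bases before to 50 bases after each start. Of these 11 promoters, 8 held at least 1 core, with 20 cores in all, a palindrome in Pfkfb3 being counted once on each strand. By comparison, 43.8% of 32851 promoters in the same table held a core, 19.6% ACGTG and 32.4% GCGTG. These shares were not matched for base composition, so the comparison cannot show an enrichment. Gpi1 was the 1 member without a core in its window. Hk1 held 5 cores at the second of its listed starts and 0 at the first, Pfkp held 4, Pfkfb3 held 4 at its second start and 1 at its first, Hk2 and Pgm2 held 2 each, Pfkl held 1, and Pgd held 1 at its first start and 0 at its second. The 6 windows shown here, from 230 bases before to 25 bases after the start and read along the strand of the gene, are those of Pfkl, Hk1 and Pgm2, which passed the test, of their isoenzymes Hk2 and Pfkp, which did not, and of Pfkfb3, which has a palindromic CACGTG that reads as ACGTG on either strand. Capitals mark the cores, which appear as CACGT or CACGC where they lie on the opposite strand.
Hk1, second start, chr10:62340397-62340651, minus strand: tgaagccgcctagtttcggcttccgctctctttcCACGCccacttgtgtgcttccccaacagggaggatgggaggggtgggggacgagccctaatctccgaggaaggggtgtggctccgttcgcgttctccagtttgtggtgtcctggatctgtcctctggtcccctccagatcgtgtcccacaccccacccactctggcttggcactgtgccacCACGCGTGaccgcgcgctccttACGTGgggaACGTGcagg
Hk2, chr6:82774430-82774684, minus strand: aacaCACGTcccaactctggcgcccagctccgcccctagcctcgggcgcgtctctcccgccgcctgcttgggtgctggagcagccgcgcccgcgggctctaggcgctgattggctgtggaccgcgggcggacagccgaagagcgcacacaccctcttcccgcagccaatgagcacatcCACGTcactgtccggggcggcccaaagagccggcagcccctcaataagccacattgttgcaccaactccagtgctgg
Pfkl, chr10:78009783-78010037, minus strand: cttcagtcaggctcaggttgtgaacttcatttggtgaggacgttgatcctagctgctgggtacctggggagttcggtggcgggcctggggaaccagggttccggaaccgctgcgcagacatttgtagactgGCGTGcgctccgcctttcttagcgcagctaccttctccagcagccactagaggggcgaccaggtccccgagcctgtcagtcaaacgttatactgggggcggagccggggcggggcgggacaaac
Pfkp, chr13:6648747-6649001, minus strand: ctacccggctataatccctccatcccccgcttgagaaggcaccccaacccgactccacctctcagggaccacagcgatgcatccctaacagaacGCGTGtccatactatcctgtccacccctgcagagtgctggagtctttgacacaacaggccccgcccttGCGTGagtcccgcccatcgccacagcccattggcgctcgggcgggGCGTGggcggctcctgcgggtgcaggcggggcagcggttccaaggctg
Pfkfb3, second start, chr2:11502066-11502320, minus strand: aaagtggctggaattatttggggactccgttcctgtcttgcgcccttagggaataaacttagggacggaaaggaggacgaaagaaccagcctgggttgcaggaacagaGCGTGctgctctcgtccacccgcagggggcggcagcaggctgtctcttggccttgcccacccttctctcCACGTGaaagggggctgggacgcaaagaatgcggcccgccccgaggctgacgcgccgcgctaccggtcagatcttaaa
Pgm2, chr4:99929221-99929475, plus strand: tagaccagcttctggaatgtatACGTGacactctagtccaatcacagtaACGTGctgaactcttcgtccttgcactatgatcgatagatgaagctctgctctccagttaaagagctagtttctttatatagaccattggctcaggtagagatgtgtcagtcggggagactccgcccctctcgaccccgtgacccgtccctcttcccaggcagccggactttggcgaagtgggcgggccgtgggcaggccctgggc
Pfkl, the member with the largest rise, had a single core, 99 bases before its start. Pfkp, with a far smaller change, had cores 136, 68 and 23 bases before its start and another 30 bases after it, beyond the printed window. The second start of Pfkfb3 also had a core beyond its printed window, 38 bases after the start. Of the 5 Hk1 cores, 3 were GCGTG, of which a pair overlaps just before the start, and 2 were ACGTG just after it. A match is a string of letters, and neither binding nor use of a start was measured.

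All 8 members had a higher mean in the libraries labelled overexpression. Pfkl rose most, to 3.78 times its flox mean. Hk1 and Pgm2 rose to 2.24 and 2.08 times theirs. These 3 of 8 members passed edgeR's quasi-likelihood test at an adjusted p under 0.05, whereas 2.68% of the 785 listed genes that were fitted passed in the higher direction. In 7 of 8 members every overexpression library lay above every flox library, against 320 of the 785 genes fitted (40.8%). Only genes that were higher, 424 of the 785, could meet this, and all 8 members were higher. Set against those 424 genes, 7 of 8 is close to the share of the table. The median log2 fold change was 0.87 over the members and 0.34 over all genes fitted, of which 424 of 785 (54.0%) were higher. As all 8 members were higher, the 424 higher genes are the closer comparison for this median and for the calls. The genes ranked 212 and 213 of these 424 by rise, Mrm1 and 1810065E05Rik, each had a log2 fold change of 0.72. Of the same 424 genes, 21 passed. Before adjustment, 7 members had an edgeR p under 0.05 and Pgd had 0.0915. Of the 785 genes fitted, all of which had passed the authors' filter, 653 had an edgeR p under 0.05. This count therefore does not set the members apart.

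**Figure D1:**
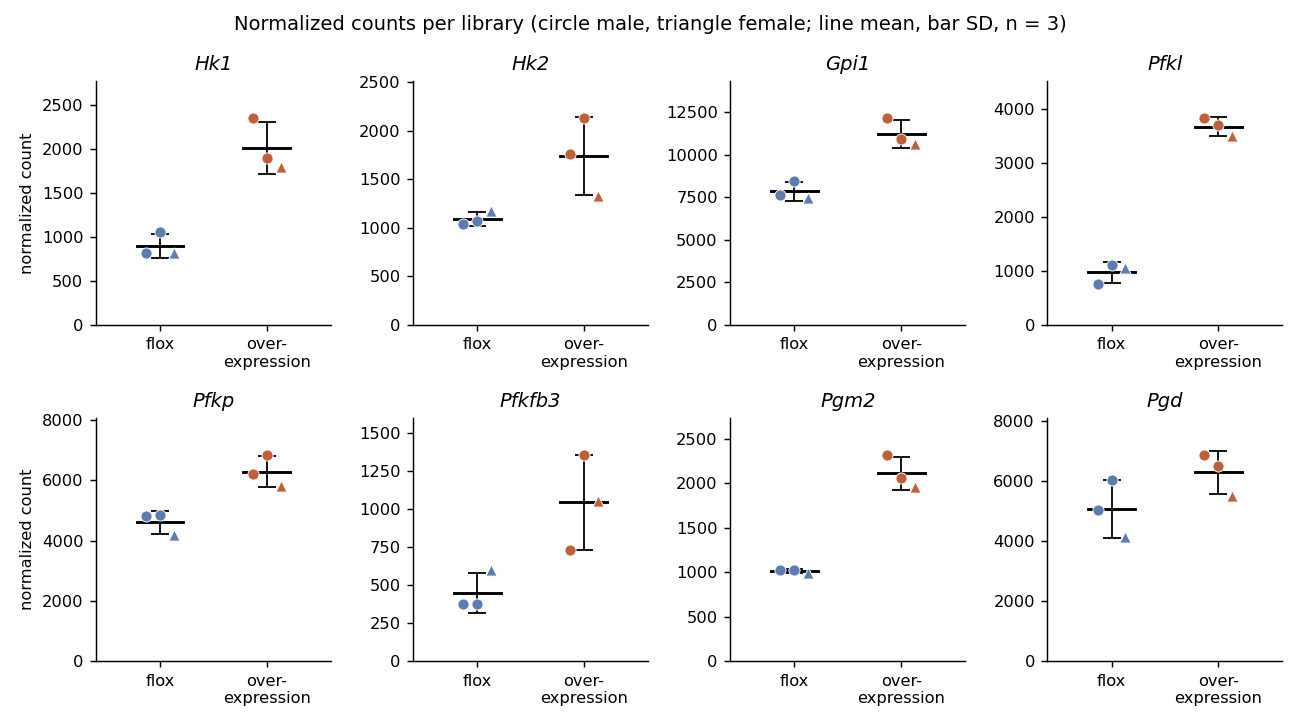
Each panel plots the normalized count of 1 gene on its own axis starting at 0, for 3 flox and 3 overexpression libraries, with circles for males, triangles for females, a line at the mean and a bar of 1 SD. The groups are apart in 7 panels and overlap for Pgd, whose highest flox library (6051) lies above its lowest overexpression library (5506).

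Hexokinase, the entry step, is represented by Hk1 and Hk2. Hk1 (ENSMUSG00000037012, GRCm38 chromosome 10 from 62268855 to 62379908, minus strand), the widely expressed isoenzyme, had 828, 1203 and 871 fragments counted in flox 1 to 3 and 2513, 1780 and 1542 in overexpression 1 to 3. After division by the size factors these were 816, 1057 and 820 normalized counts in flox and 2350.2, 1894 and 1797 in overexpression. The lowest overexpression library was thus 741 normalized counts above the highest flox library. The means were 898 ± 138 and 2014 ± 295 (SD, n = 3), a log2 fold change of 1.17 (SE 0.16, edgeR adjusted p = 0.0325). The call on Hk1 did not survive the loss of single libraries: it remained without flox replicate 2 (edgeR adjusted p = 0.0314) and was lost without any of the other 5 libraries (up to 0.233).

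Hk2 (ENSMUSG00000000628, chromosome 6 from 82725025 to 82774454, minus strand), the isoenzyme of muscle and fat that is induced in many tumours, was counted at 1048, 1218 and 1247 fragments in flox and 1886, 2000 and 1141 in overexpression. Its normalized counts were 1033, 1070.1 and 1173 in flox and 1764, 2129 and 1330.0 in overexpression. The groups did not overlap, but the gap between them was 157 normalized counts, and the female overexpression library lay closest to the flox libraries. The means were 1092 ± 72.6 and 1741 ± 400 (SD, n = 3), with a log2 fold change of 0.67 (SE 0.18) that did not pass (edgeR adjusted p = 0.741).

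The next step belongs to Gpi1 (ENSMUSG00000036427, chromosome 7 from 34201330 to 34230336, minus strand), which encodes phosphoglucose isomerase and was the most abundant member by FPKM in both groups. It was counted at 7744, 9652 and 7905 fragments in flox and 13006, 10267 and 9109 in overexpression. The normalized counts were 7636, 8479.8 and 7438 in flox and 12163.5, 10927 and 10618 in overexpression. Every overexpression library stood at least 2138 normalized counts above the flox libraries, and the spread within each group was about 7% of the mean (coefficients of variation 7.04% and 7.28%). The log2 fold change was 0.52 (SE 0.13, edgeR adjusted p = 0.716), from 7851 ± 553 to 11236 ± 818 normalized counts (SD, n = 3), and did not pass. On the opposite strand, exons of the predicted gene Gm26762 cover 11.5% of the exonic bases of Gpi1, and Gm26762 is in the table itself at 15.8, 16.7 and 19.8 normalized counts in flox and 54.2, 37.3 and 34.97 in overexpression. Those levels are small beside Gpi1. How fragments in the shared bases were assigned is not stated, so the part of this overlap in the Gpi1 counts was not tested.

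Phosphofructokinase, the committing step, showed a wider difference between isoenzymes than hexokinase. Pfkl (ENSMUSG00000020277, chromosome 10 from 77986947 to 78010083, minus strand), the liver type subunit, was counted at 760, 1267 and 1125 fragments in flox and 4101, 3482 and 3003 in overexpression. The normalized counts were 749, 1113 and 1059 in flox and 3835, 3706 and 3500.4 in overexpression. The lowest overexpression library was 2387 normalized counts above the highest flox library. The means were 974 ± 196 and 3681 ± 169 (SD, n = 3), and the log2 fold change was 1.92 (SE 0.17, edgeR adjusted p = 0.00199). By size of p, Pfkl was number 4 of the 785 genes fitted. It passed without each of the 6 libraries in turn (edgeR adjusted p from 0.00218 to 0.0417), and did not pass with the males alone (edgeR adjusted p = 0.207).

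Pfkp (ENSMUSG00000021196, chromosome 13 from 6579768 to 6648777, minus strand), the platelet type subunit, was counted at 4880, 5507 and 4440 fragments in flox and 6625, 6429 and 4991 in overexpression. Its normalized counts were 4812, 4838 and 4178 in flox and 6196, 6842 and 5818 in overexpression. The groups lay apart by 979 normalized counts, with flox and overexpression means of 4609 ± 374 and 6285 ± 518 (SD, n = 3). The log2 fold change of 0.45 (SE 0.13) did not pass (edgeR adjusted p = 1).

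Pfkfb3 (ENSMUSG00000026773, chromosome 2 from 11471433 to 11554077, minus strand), the PFKFB enzyme with the strongest kinase activity and so a maker of fructose-2,6-bisphosphate, was the least abundant member. It was counted at 381, 428 and 640 fragments in flox and 784, 1277 and 903 in overexpression. The normalized counts were 375.7, 376.0 and 602 in flox and 733, 1359 and 1053 in overexpression. The flox female was highest of its group and overexpression 1 was lowest of its group, which left a gap of 131 normalized counts. The means were 451 ± 131 and 1048 ± 313 (SD, n = 3). The log2 fold change of 1.22 was close to that of Hk1, but its SE of 0.25 was wider and it did not pass (edgeR adjusted p = 0.379). The coefficients of variation of Pfkfb3, 29.0% in flox and 29.9% in overexpression, were the largest of the members in each group. Counting error alone gives 4.55% and 3.18%.

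The glycogen branch is represented by Pgm2 (ENSMUSG00000025791, chromosome 4 from 99929414 to 99987294, plus strand), a phosphoglucomutase. RefSeq calls the gene at this position Pgm1, the counterpart of human PGM1, and gives the name Pgm2 to another gene. The deposited name is kept here. Pgm2 was counted at 1041, 1167 and 1051 fragments in flox and 2480, 1937 and 1679 in overexpression. Its normalized counts were 1026.5, 1025.3 and 989 in flox and 2319, 2062 and 1957 in overexpression, with a gap of 931 between the groups. The flox libraries differed by less than counting error gives (coefficient of variation 2.10% against 3.03%). From 1014 ± 21.3 to 2113 ± 186 normalized counts (SD, n = 3), the log2 fold change was 1.06 (SE 0.13, edgeR adjusted p = 0.0139). The call remained without overexpression replicate 3 (edgeR adjusted p = 0.0499) and was lost without any of the other 5 libraries (up to 0.128). The exons of Itgb3bp, a gene of the opposite strand that is not in the table, cover 13.6% of the exonic bases of Pgm2, and no source says if counting was by strand. Smaller overlaps on the opposite strand were those of Pitrm1 with Pfkp (5.58%) and of Hk1os with Hk1 (1.84%). Neither Pitrm1 nor Hk1os is in the table.

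The pentose phosphate branch is represented by Pgd (ENSMUSG00000028961, chromosome 4 from 149149991 to 149166771, minus strand), which encodes 6-phosphogluconate dehydrogenase, an NADPH-producing enzyme of the oxidative arm. Pgd was counted at 5106, 6888 and 4401 fragments in flox and 7350.0, 6103 and 4724 in overexpression. Its normalized counts were 5035, 6051 and 4141 in flox and 6874, 6495 and 5506 in overexpression. The female library was lowest in each group, and flox 2 lay above overexpression 3. The means were 5076 ± 956 and 6292 ± 706 (SD, n = 3), and the log2 fold change of 0.31 (SE 0.17, edgeR adjusted p = 1) was the smallest of the members.

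The share of each isoenzyme was read from FPKM, which is scaled to gene length and library total. In flox, Hk1 had 4.31, 5.66 and 4.39 FPKM and Hk2 had 7.79, 8.19 and 8.98. In overexpression, Hk1 had 12.4, 10.02 and 9.55 FPKM and Hk2 had 13.3, 16.1 and 10.1. Hk1 thus made up 36.4% ± 4.08 of the summed FPKM of both in flox and 45.1% ± 5.80 in overexpression (SD, n = 3). The shares overlapped, because Hk1 held 40.9% in flox 2 and 38.4% in overexpression 2. The summed FPKM rose from 13.1 ± 0.909 to 23.8 ± 3.62, or to 1.82 times the flox level, and Hk1 made up 54.8% of the gain. On the log2 scale the ratio of Hk2 to Hk1 differed by −0.52 between overexpression and flox (exact permutation test, two-sided, p = 0.2, n = 3 per group), a difference within the spread of the libraries.

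For phosphofructokinase, Pfkl had 5.05, 7.62 and 7.24 FPKM in flox and 25.9, 25.0 and 23.8 in overexpression. Pfkp had 16.2, 16.5 and 14.2 FPKM in flox and 20.8, 23.0 and 19.7 in overexpression. Pfkl therefore made up 29.7% ± 5.21 of the pair in flox, with 23.8%, 31.6% and 33.7% in the 3 libraries, and 54.1% ± 1.75 in overexpression, with 55.4%, 52.1% and 54.7%. The groups did not overlap. The summed FPKM rose from 22.3 ± 1.61 to 46.1 ± 2.37, or to 2.07 times the flox level, and 76.7% of that gain was Pfkl. The ratio of Pfkp to Pfkl in normalized counts was 6.42, 4.35 and 3.95 in flox and 1.62, 1.85 and 1.66 in overexpression. On the log2 scale it differed by −1.49 between overexpression and flox (exact permutation test, two-sided, p = 0.1, n = 3 per group), and 0.1 is the smallest p that 3 against 3 can give.

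**Figure D2:**
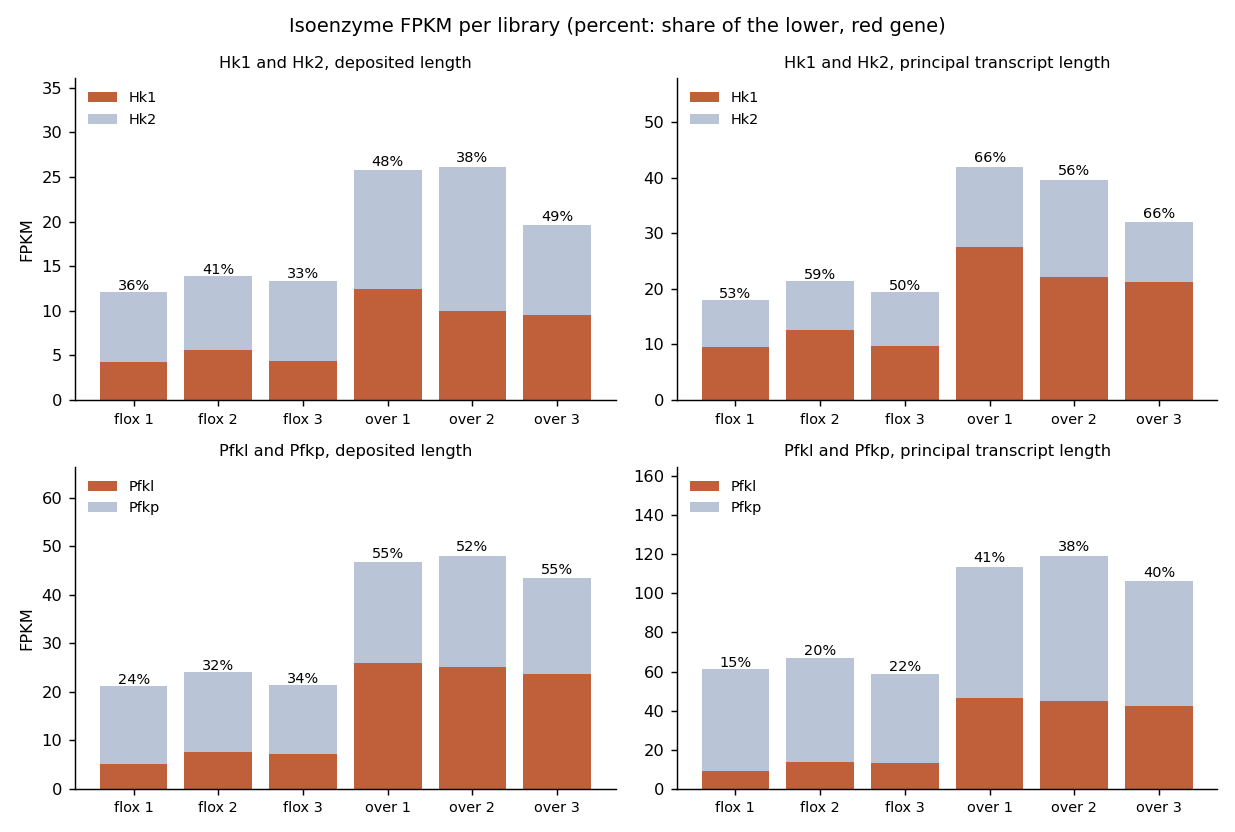
Stacked bars give the FPKM of Hk1 and Hk2 (top) and of Pfkl and Pfkp (bottom) in each of 6 libraries, with the share of the lower gene as a percent above each bar, on axes that start at 0 and differ between panels. The left panels use the deposited lengths and the right panels the length of a principal transcript. The Pfkl share is higher in each overexpression library under both lengths, while the gene that leads depends on the length for Hk1 and Hk2 in both groups and for Pfkl and Pfkp in overexpression.

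The change between groups in each share does not rest on the choice of gene length as strongly as the level does. The deposited FPKM divide by all exonic bases of a gene, 8532 for Hk1, 5969 for Hk2, 6675 for Pfkl and 13401 for Pfkp. The principal transcripts of GENCODE M21 are 3851, 5513, 3730.0 and 4145 bases long. With these, chosen as an alternative after the data were seen, Hk1 made up 53.9% ± 4.34 of its pair in flox and 62.5% ± 5.63 in overexpression. Pfkl made up 19.0% ± 3.79 in flox and 39.5% ± 1.67 in overexpression. Hk2 thus led its pair in both groups by the deposited length and Hk1 by the principal one, and Pfkl led in overexpression by the deposited length only. Fold changes between groups do not depend on length, but the split of a summed gain does. The parts given above, 54.8% for Hk1 and 76.7% for Pfkl, are those at the deposited lengths. With principal lengths the mean FPKM rose from 10.6 to 23.6 for Hk1 and from 9.01 to 14.3 for Hk2. For Pfkl it rose from 11.9 to 44.6 and for Pfkp from 50.5 to 68.5. Hk3, Hkdc1 and Pfkm were not in the table, so the shares are of the listed isoenzymes only.

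By FPKM, the order of the members in flox was Gpi1 (55.3), Pgd (35.8), Pgm2 (15.8), Pfkp (15.6), Hk2 (8.32), Pfkl (6.64), Hk1 (4.78) and Pfkfb3 (2.72). In flox, Pgm2 and Pfkp did not differ beyond their spread, with 15.8, 16.0 and 15.5 FPKM for Pgm2. Pfkl (5.05 to 7.62 FPKM) overlapped Hk1 (4.31 to 5.66 FPKM) but lay just under Hk2 (7.79 to 8.98 FPKM). In overexpression the order was Gpi1 (78.7), Pgd (44.1), Pgm2 (32.7), Pfkl (24.9), Pfkp (21.2), Hk2 (13.2), Hk1 (10.7) and Pfkfb3 (6.26). At these deposited lengths Pfkl moved from place 6 to place 4, and the other members kept their order among themselves. There, Hk2 (10.1 to 16.1 FPKM) and Hk1 (9.55 to 12.4 FPKM) overlapped, whereas Pfkl (23.8 to 25.9 FPKM) lay above Pfkp (19.7 to 23.0 FPKM) in every library. No other neighbours in either order overlapped at the deposited lengths. With principal transcript lengths the order changed. In flox it was Gpi1, Pgd, Pfkp, Pgm2, Pfkl, Hk1, Hk2 and Pfkfb3, with 1112 ± 90.2 normalized counts per kilobase for Pfkp and 428 ± 9.01 for Pgm2 (SD, n = 3). In overexpression Pfkl (987 ± 45.3 per kilobase) stood between Pfkp (1516 ± 125) and Pgm2 (892 ± 78.7), so it moved from place 5 to place 4. At the deposited lengths, the largest gains in mean FPKM were those of Gpi1 (23.3), Pfkl (18.3) and Pgm2 (16.9). With principal lengths Pgd gained more than Pgm2, going from 2288 to 2837 normalized counts per kilobase against 428 to 892.

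The rise did not follow the order of the reactions. From hexokinase through the isomerase to phosphofructokinase, the log2 fold changes were 1.17 and 0.67 for Hk1 and Hk2, 0.52 for Gpi1, and 1.92 and 0.45 for Pfkl and Pfkp. By point estimates, the order of effect ran Pfkl, Pfkfb3, Hk1, Pgm2, Hk2, Gpi1, Pfkp and Pgd. Pfkl and Pfkp stood far from each other in it, and the libraries of the groups did not overlap in their ratio. Hk1 and Hk2 differed by 0.52 (SE 0.25), and in their ratio the libraries did overlap. For each of 28 pairs of members, the difference in log2 fold change was taken as the difference between groups of the log2 ratio within a library, which needs no scaling for depth. In 12 of 28 pairs the libraries of the groups did not overlap, against 28.2% of pairs of listed genes that were both higher. None of the 12 could pass a test, since the exact permutation p was at its smallest possible value of 0.1 (0.233 after Benjamini-Hochberg adjustment over 28 pairs, n = 3 per group). Pfkl stood apart from 6 of the other 7 members, by 0.77 (SE 0.17) from Hk1 up to 1.62 (SE 0.23) from Pgd. The exception was Pfkfb3, from which it differed by 0.73 (SE 0.36). Hk1 and Pgm2 each stood apart from Gpi1, Pfkp and Pgd. For Hk1 these differences were 0.65 (SE 0.09), 0.72 (SE 0.17) and 0.85 (SE 0.11). For Pgm2 they were 0.54 (SE 0.05), 0.61 (SE 0.10) and 0.74 (SE 0.15). Of the 7 pairs of neighbours in the order, 0 stood apart, so the libraries separated some upper from some lower members but no member from the next.

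**Figure D3:**
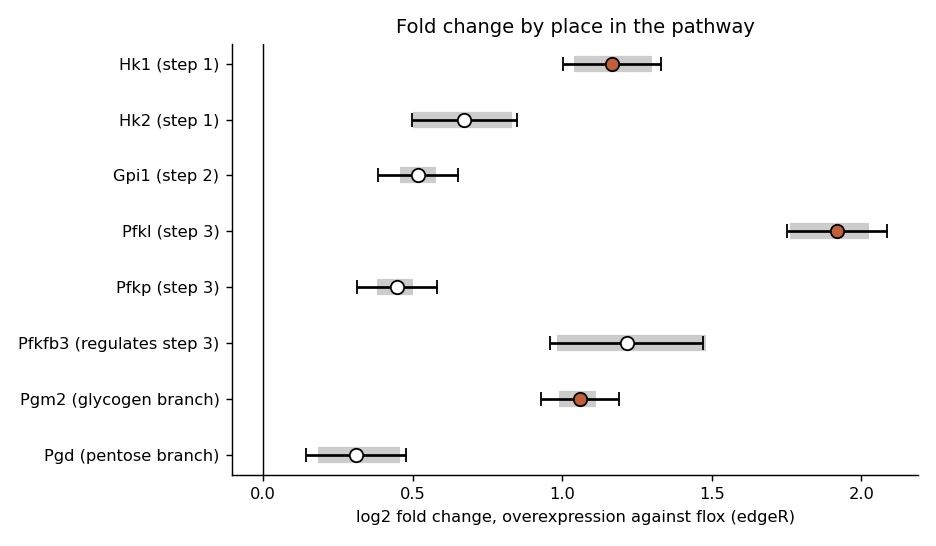
Points give the edgeR log2 fold change of each member (overexpression against flox) with a bar of 1 SE, in the order of the pathway from top to bottom, and grey bands span the values when each library was left out in turn. Filled points passed at an adjusted p under 0.05: Hk1 (1.17), Pfkl (1.92) and Pgm2 (1.06).

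**Figure D4:**
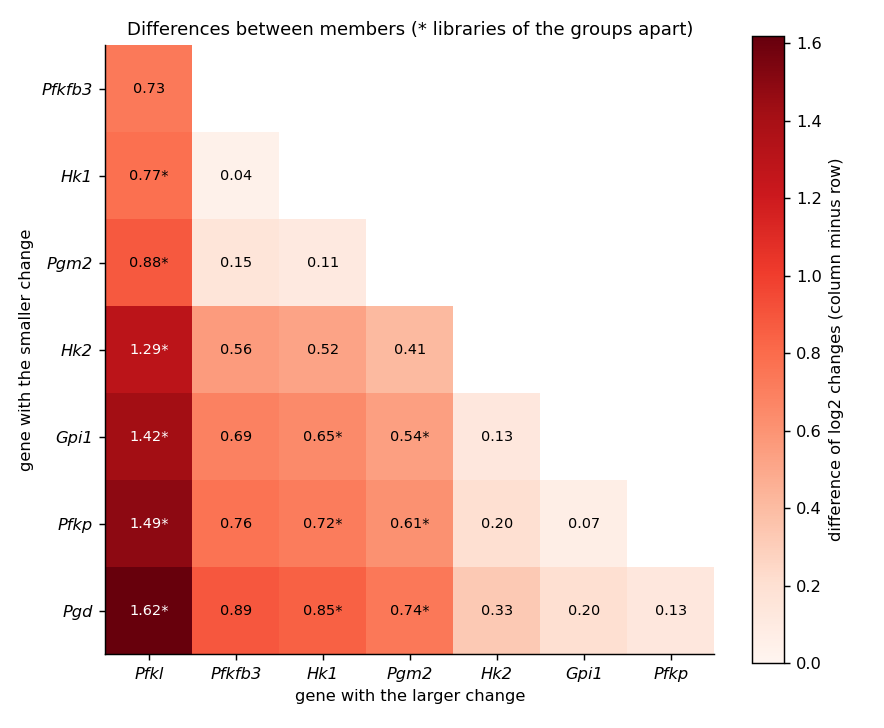
Each cell gives the difference in log2 fold change between the gene of its column and the gene of its row, with members sorted by the size of their change, and a star marks pairs whose 3 flox and 3 overexpression libraries did not overlap. The Pfkl column has 6 stars, the Hk1 and Pgm2 columns 3 each, and the others 0.

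The males and the female of each group were compared as a description, since each group had 1 female. Hk2 differed most: the overexpression female had 1.13 times the normalized count of the flox female, while the mean of the overexpression males was 1.85 times that of the flox males. For Pfkfb3 these ratios were 1.75 and 2.78, and for Pfkl 3.31 and 4.05. For Hk1 (2.19 and 2.27), Pgm2 (1.98 and 2.14), Gpi1 (1.43 in both), Pfkp (1.39 and 1.35) and Pgd (1.33 and 1.21) they lay closer together. An edgeR fit with a sex by group term gave the female change minus the male change on the log2 scale. It was −0.71 for Hk2, −0.67 for Pfkfb3, and from −0.29 (Pfkl) to 0.14 (Pgd) for the other members. With 1 female per group the spread among females is unknown, so only the sizes of these differences are given.

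The wider pathways around the members were read from 5 lists with 103 genes, of which 12 were in the table, 4 of them not members. A gene outside the table was not analysed here, which does not mean that it was absent or unchanged. Of 22 genes of upper glycolysis and the enzymes that oppose it, 7 were in the table, 6 of them higher and 1 lower, and 2 passed, both higher. The lower one was Tigar, whose product breaks down fructose-2,6-bisphosphate and so works against PFKFB3. Tigar had 316, 395 and 314 normalized counts in flox and 229, 231 and 219 in overexpression. The groups did not overlap, but the log2 fold change of −0.59 (SE 0.19) did not pass (edgeR adjusted p = 1). Of 19 genes of the pentose phosphate pathway, 1 was in the table, which was Pgd. G6pdx, the first enzyme of the oxidative arm, was not. Of 29 genes of phosphoglucomutases and glycogen, 1 was in the table, Pgm2, and it passed. Of 17 genes of the hexosamine and mannose branches, 2 were in the table. Gfpt1, the entry enzyme of the hexosamine pathway, had a log2 fold change of 0.28 (SE 0.14, edgeR adjusted p = 1). Gnpnat1, an acetyltransferase later in that pathway, was near 0, with 0, 20.2 and 0.941 normalized counts in flox and 0 in each overexpression library, and was not fitted.

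The listed genes whose pattern over the 6 libraries was most like that of each member were found among 515 candidates by the root mean square difference of centred log2 normalized counts, which includes the difference between groups that put all of them in the table. Hk1 and Pgm2 had Pkm, the last enzyme of glycolysis, as their nearest gene, at 0.126 and 0.0769 on the log2 scale. Hk1 was followed by Aldoa (0.133) and Pgm2 (0.137), and Pgm2 by Bnip3l (0.1004) and Tpi1 (0.109). Pfkl was nearest to Aldoc (0.163), Fam162a (0.213) and Pgk1 (0.217). Aldoa, Aldoc, Tpi1 and Pgk1 are enzymes of the lower steps of glycolysis. The members with smaller changes had other genes nearest to them. Gpi1 was nearest to Hdhd5 (0.0654), Apba3 (0.0710) and Mrpl14 (0.0827), and Pfkp to Got1 (0.0571), Xpnpep1 (0.0585) and Ddah1 (0.0668). Pgd was nearest to Mrpl21 (0.0712), Sec61g (0.0801) and Atp5e (0.0904), and Hk2 to Afmid (0.106), Klf10 (0.136) and Ap5b1 (0.136). Pfkfb3 had the most distant neighbours, Efna3 (0.245), Hbegf (0.276) and Lipg (0.298).

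The calls on the members depended on the test. With DESeq2 in place of edgeR, 5 of 8 members passed, Gpi1 (adjusted p = 0.0216) and Pfkfb3 (adjusted p = 0.00503) in addition to Pfkl, Hk1 and Pgm2, against 7.64% of the listed genes in the higher direction. Hk2, Pfkp and Pgd passed under none of the 16 alternatives run. In all 128 values of 8 members under 16 alternatives the direction remained higher. The alternatives reused the same 6 libraries or parts of them, and the members had passed a filter on this contrast. A reversal was therefore unlikely from the outset, and the kept direction is no separate evidence.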

How the data were processed

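The members and the gene lists were chosen with earlier results of these data known. Per the labels and the paper's methods, polyadenylated RNA was read as pairs of 150 bases. The authors used HISAT2 (version 2.0.5) for alignment to GRCm38 and featureCounts for counting, and the deposited counts are whole fragments per gene. The normalized signal, called normalized counts here, is the authors' count over a DESeq2 size factor of the library. FPKM are the authors' values scaled to exonic length and to the total of the library. The deposited table also holds the authors' log2 fold changes, p-values and adjusted p-values, which were not used as results. They were read to find that all 923 genes have a p-value under 0.05, that 19204 genes were tested and that 138 low genes (mean up to 4.16 normalized counts) carry an adjusted p of 1.

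The 785 other genes were fitted with edgeR 4.0.16 (R 4.3.3; glmQLFit and glmQLFTest on deposited counts and size factors, 3 libraries against 3, no covariate). Benjamini-Hochberg adjustment was over 19204 genes, unlisted ones being taken as p of 1. SE is the log2 fold change divided by the root of the F statistic. Ratios within libraries were tested by exact permutation. At totals of 18918341 to 24905343 fragments, counting alone gives a member a coefficient of variation of 0.963% to 4.55%. FPKM shares had no test. Promoters were RefSeq's. Overlapping exons and principal transcripts came from GENCODE M21. All listed pathway genes were named by rule, as were the 3 most alike genes of each member among those averaging 50 or more normalized counts (pseudocount 1). Other genes were named after their values were seen. Some genes of the lists are not reported here. Steps were tested on simulated data. As alternatives, a replicate block, a sex covariate, the males alone, each library left out, other scalings, other count filters, DESeq2 1.42.0 and limma-voom 3.58.1 were run.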

Additional observations from a re-analysis of the deposited data

How the results depend on the processing

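The members kept their direction under all 16 alternatives, which the filter on the same libraries made likely from the outset. Of the 785 genes fitted with edgeR, 22 passed. The count was 73 with the DESeq2 test, 41 with the replicate block and 1 with males only, and 4 to 13 when each library was left out. The members that passed numbered 3, against 5 with the DESeq2 test, 0 with males only and 1 to 2 when each library was left out, being 1 without flox replicates 1 and 3 and overexpression replicates 1 and 2. With males only, Pfkl had an edgeR adjusted p of 0.207. With DESeq2 size factors taken from the listed genes, the median log2 fold change of those genes went from 0.34 to 0.20 and Hk1 lost its call. With principal transcript lengths the change in the Pfkl share was 20.4 points in place of 24.4. Samples with the same number in the labels are separate mice, and their deviations from the group means correlated at 0.04, 0.03 and 0.06, although each library correlated best with its own number, so the replicate block is given only here. Under it, 4 members passed, Pfkfb3 being gained (edgeR adjusted p = 0.0121). With 3 mice per group, exact tests cannot go below 0.1.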
